A study of Homo sapiens with 4 samples.

Results

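Antisense long non-coding RNAs (lncRNAs) named after the gene on the opposite strand, such as SRRM2-AS1 after SRRM2, were followed in human hepatocellular carcinoma cells at low and at high glucose, each beside its partner gene. The members were chosen by name and by reads: of 1435 genes whose name ends in -AS and a digit, 1414 had the gene named before -AS in the same table, and 171 of these had at least 50 reads in every library. They were 171 of the 59652 genes counted and carried between 0.217 and 0.244% of the reads of a library, and they have 169 partners, since PAXIP1-AS1 and PAXIP1-AS2 share PAXIP1, and ZBTB20-AS1 and ZBTB20-AS5 share ZBTB20. A further 1241 stayed under 50 reads in some library, 284 of them with no read at all, and 2 (SLC7A11-AS1 and EPB41L4A-AS1) were not considered. Because the rule reads the counts, the levels are descriptions, and an antisense RNA nearly silent in any library cannot be a member: 60 had at least 50 reads in both Huh7 libraries and fewer in both PLC libraries, and 27 the reverse.

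An antisense lncRNA is transcribed from the DNA strand opposite to a gene, and the pair can be arranged in several ways. In a head-to-head pair both start near each other and run apart, often from a shared promoter rich in CG pairs. In a tail-to-tail pair their ends meet, and in a nested pair either lies inside the other. Such RNAs are known to act on their partner through chromatin, through pairing of the RNAs or by the act of transcription itself, while others work elsewhere in the cell or have no known role, and many divergent transcripts are removed by the nuclear exosome.

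Total RNA depleted of ribosomal RNA was sequenced in 4 libraries: Huh7 at 5 mM glucose, Huh7 at 25 mM, PLC at 5 mM and PLC at 25 mM. Both lines are wild-type hepatocellular carcinoma lines grown in glucose-free DMEM with fetal bovine serum to which the glucose was added for 48 h, and 5 mM is the low and 25 mM the high level. There was 1 library for each line and glucose level, so the ratio within a line has no replicate, and the libraries held between 16049686 (PLC, 25 mM) and 30279716 (PLC, 5 mM) reads on genes. Of 10 hepatocyte markers 10 lay above 0.5 FPKM (reads scaled by gene length and library size) in both Huh7 libraries and 8 in both PLC libraries, where AHSG had 25 and 9 reads and TTR 4 and 0, and none of 3 leukocyte and 2 stellate cell markers passed that level in any library. Of 2 endothelial markers PECAM1 passed it in Huh7 cells (2.37 and 2.55 FPKM), and of 3 fibroblast markers COL3A1 in PLC cells (137 and 141 reads), and their part in the results was not tested. In such bulk samples, fewer cells of a kind and less RNA per cell cannot be told apart.

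All 171 antisense genes lay on the strand opposite to their partner. In 125 pairs at least 1 exonic base of the antisense gene lay in an exon of the partner, in 30 the genes crossed without sharing an exonic base, and in 16 the antisense gene lay outside the partner. By arrangement 77 pairs were head to head, 45 were tail to tail, 30 antisense genes were nested in the partner and 19 enclosed it. The 16 outside pairs were all head to head. The counts did not separate the strands: among genes lying wholly inside the exons of another, well expressed gene, 200 of 200 on the strand opposite to that gene had no read in any library, and so had 68 of 68 on the same strand. Reads in exonic bases that genes share were therefore given to neither, and the count of an antisense gene comes from its own exonic bases. Exons of other genes covered a median of 6.55% of a member's exonic bases (at most 64.6%). This does not remove reads from introns: nested antisense genes had a median of 96.1% of their exonic bases in the partner's introns, where unspliced RNA of the partner and the antisense RNA cannot be told apart. Of the 16 outside members 8 had no exon of another gene over theirs, and coverage in the rest reached 64.6%. In these 16 pairs the partner itself has neither exon nor intron under the antisense gene.

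The outside pairs are therefore the clearest for reading a lncRNA apart from its partner, and 7 that start within 60 bases of each other are shown. The bases between the 2 starts are given from the hg38 genome along the strand of the antisense gene, with every CG pair in capitals, because this stretch lies in front of both genes.
SRRM2-AS1 and SRRM2, chr16:2752601-2752625 on the minus strand: gCGtcagcaCGcaaaCGCGCGtCGc
TRIM52-AS1 and TRIM52, chr5:181261140-181261168 on the plus strand: CGaCGcaaaatgaCGtctCGctcctgcac
RTCA-AS1 and RTCA, chr1:100266180-100266215 on the minus strand: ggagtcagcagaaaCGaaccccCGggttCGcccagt
UBA6-AS1 and UBA6, chr4:67701156-67701208 on the plus strand: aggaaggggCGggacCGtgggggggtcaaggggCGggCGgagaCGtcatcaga
SUCLG2-AS1 and SUCLG2, chr3:67654613-67654668 on the plus strand: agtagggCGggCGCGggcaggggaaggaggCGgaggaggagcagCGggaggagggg
TPT1-AS1 and TPT1, chr13:45341285-45341344 on the plus strand: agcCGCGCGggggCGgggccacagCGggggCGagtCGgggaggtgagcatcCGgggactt
SRP14-AS1 and SRP14, chr15:40039182-40039241 on the plus strand: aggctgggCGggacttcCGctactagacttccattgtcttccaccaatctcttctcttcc
These stretches held 2 to 8 CG pairs and had a GC content of 53.3 to 78.3%. The shortest, 25 bases between SRRM2-AS1 and SRRM2, had 6 CG pairs, and the 60 bases in front of SRP14-AS1 had the fewest, 2. Over the promoter windows of RefSeq (GRCh38.p14, 250 bases before to 50 after a start), 129 of the 171 members were matched, with 156 windows, and the median window held 20 CG pairs against 14 in all 35116 windows. The median was 20 both for head-to-head members and for members in the other arrangements. The 35116 windows were not chosen by reads, as the members were, so a difference from them need not belong to antisense RNAs. The letters GGGCGG, a GC box, were found on either strand in 85 of the member windows (54.5%, against 45% of all windows), CCAAT in 35.3 against 34.6%, TATAAA in 8.33 against 11.5%, and CACGTG, the letters of an E-box that glucose-responsive factors can read, in 6.41 against 7.26%. Both strands were searched, no motif contains another, and a match describes the sequence only.

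Per length, most antisense RNAs were less abundant than the partner. The median member was at 25.6 and 25.0% of the FPKM of its partner in Huh7 cells (low glucose first) and at 23.9 and 29.5% in PLC cells. Below the partner in all 4 libraries were 128 members, above it in all 4 were 24, and 19 changed order between libraries. With own exonic bases as length, 29 to 30 members lay above the partner in a library, against 31 to 33 by full length. The 16 outside members stood at medians of 6.82 to 14.3% of the partner, and their levels ran opposite to those of the partners, with Spearman's rho between -0.64 and -0.76 across the 16 pairs in the libraries (a description over pairs that share libraries). In all 171 pairs rho lay between 0.03 and 0.11. The lowest relative levels were those of SRP14-AS1, TPT1-AS1 and SRRM2-AS1, whose partners encode a subunit of the signal recognition particle, the translationally controlled tumour protein and a scaffold of splicing speckles. SRRM2-AS1 had 0.685 and 1.23 FPKM in Huh7 and 0.725 and 1.29 in PLC cells (5 mM first), while SRRM2 had 79.9, 73.9, 39.1 and 30.4.

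**Figure D1:**
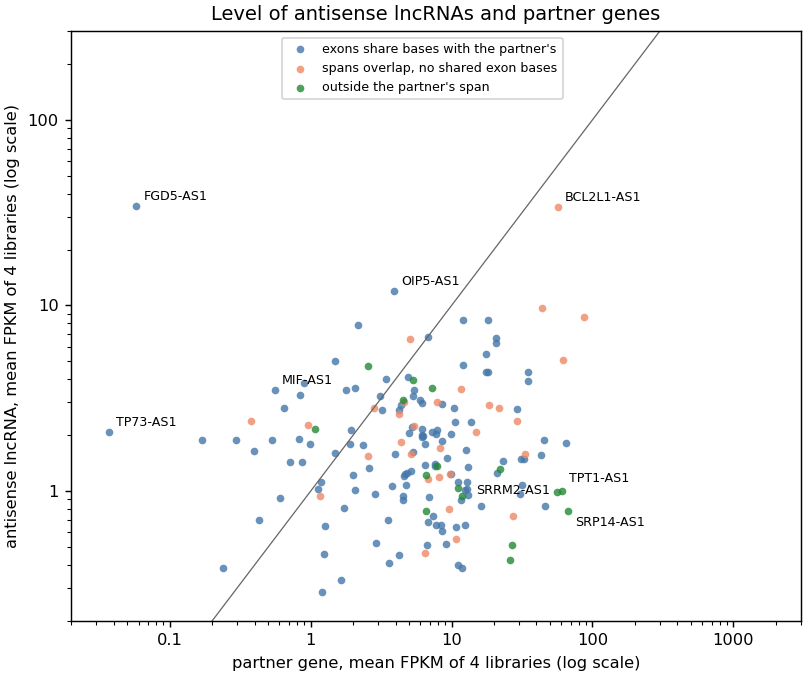
Mean FPKM over the 4 libraries of each of the 171 antisense lncRNAs (vertical axis, log scale) against that of its partner gene (horizontal axis, log scale), coloured by overlap, with the line of equal levels. Most points lie right of the line, and FGD5-AS1, OIP5-AS1, TP73-AS1 and MIF-AS1 lie left of it. FPKM uses full gene lengths, so MIF, most of whose exonic bases are shared, is drawn low.

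The most abundant members per length were FGD5-AS1, BCL2L1-AS1, OIP5-AS1, PSMA3-AS1, EIF1AX-AS1 and THUMPD3-AS1. FGD5-AS1, tail to tail with a guanine exchange factor gene known from endothelium, had 27.2 and 33.4 FPKM in Huh7 and 32.7 and 44.4 in PLC cells, while FGD5 itself had 15, 20, 0 and 8 reads. OIP5-AS1, known to bind the RNA-binding protein HuR, was nearly level, with 11.9 and 11.3 FPKM in Huh7 and 11.3 and 13.5 in PLC cells. BCL2L1-AS1 had 44.5, 38.6, 32.0 and 21.0 FPKM, but it is only 374 bases long and lies entirely in introns of BCL2L1, the gene of the survival protein Bcl-x, which had 52.0 to 59.4 FPKM. EIF1AX-AS1, 378 bases long and also entirely intronic, had 7.86 to 9.39 FPKM. Short intronic members thus stood high per length from few reads, 71, 98, 90 and 57 for EIF1AX-AS1. PSMA3-AS1, crossing the gene of a proteasome subunit, had 12.5 FPKM in both Huh7 libraries and 6.66 and 7.07 in PLC cells.

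Partner counts are small where most exonic bases are shared. MIF, the gene of an abundant cytokine, had 17, 16, 7 and 1 reads, with 94.1% of its exonic bases inside exons of other genes and 43 bases of its own. MIF-AS1, 46.5% of whose bases are shared with MIF, had 139, 151, 135 and 76 reads. PCBP1, an RNA-binding protein gene without introns that PCBP1-AS1 encloses, kept 276, 377, 243 and 143 reads with 73.2% of its exonic bases covered. Counts for these partners describe a small part of the gene. The members with most shared bases were TTN-AS1 (54.9%), ZNF337-AS1 (53.2%), ZNF529-AS1 (46.8%), MIF-AS1, PRC1-AS1 (38.0%) and PXN-AS1 (37.4%). TTN-AS1, opposite the titin gene, had 310, 362, 329 and 149 reads from the rest of its exons, and between 0.364 and 0.569 FPKM in the 4 libraries.

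The comparison of 25 with 5 mM glucose asks which antisense RNAs differ with the sugar supply. A member was called higher or lower where the FPKM ratio, with 0.1 added to both values, passed 1.5 or 0.67 and at least 1 of both libraries was above 0.5 FPKM. In Huh7 cells 11 of the 171 passed, 6 higher and 5 lower, against 7.99% of the 11229 genes with at least 50 reads in every library (3.95% higher and 4.03% lower). In PLC cells 46 passed, 37 higher and 9 lower, against 26.4% of those genes (17.0% higher and 9.32% lower). As shares, 6.43% of the members passed in Huh7 and 26.9% in PLC cells, both near the background. With libraries scaled by the trimmed mean of M-values (TMM) the split in PLC cells became 27 higher and 17 lower, while 13.0 and 13.6% of the 11229 genes were higher and lower. With nothing added, the TMM scaling changes a log2 ratio by -0.04 in Huh7 and by -0.12 in PLC cells, and less for low genes once 0.1 is added. The median log2 ratio of the members by total reads was 0.01 in Huh7 and 0.16 in PLC cells. The PLC library at 25 mM was the shallowest, so the cut of 50 reads more readily drops weak RNAs that are lower there. The 11229 genes met the same cut but were not matched to the members for abundance. The PLC median was 0.049 for the 83 members that reached 100 reads in each library, of which 16 were higher and 2 lower. A cut at 100 leans the same way, and how far either tilts the split was not tested.

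With a single library a level, only counting error could be set beside these ratios. The 95% Clopper-Pearson interval of the ratio of read shares, computed without the added 0.1, excluded 1 for 70 members in Huh7 and for 91 in PLC cells. No share over all genes is given for these intervals, so the counts show nothing particular to the members. Across the 171 members the log2 ratios of the lines had Pearson's r = 0.25 and Spearman's rho = 0.25, against r = 0.40 over the 11229 genes. Both lines together called 4 members higher (HMGA2-AS1, LIPC-AS1, SRRM2-AS1 and ZBTB20-AS1; background 2.4%) and 1 in opposite directions (SNAI3-AS1; 0.534%).

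**Figure D2:**
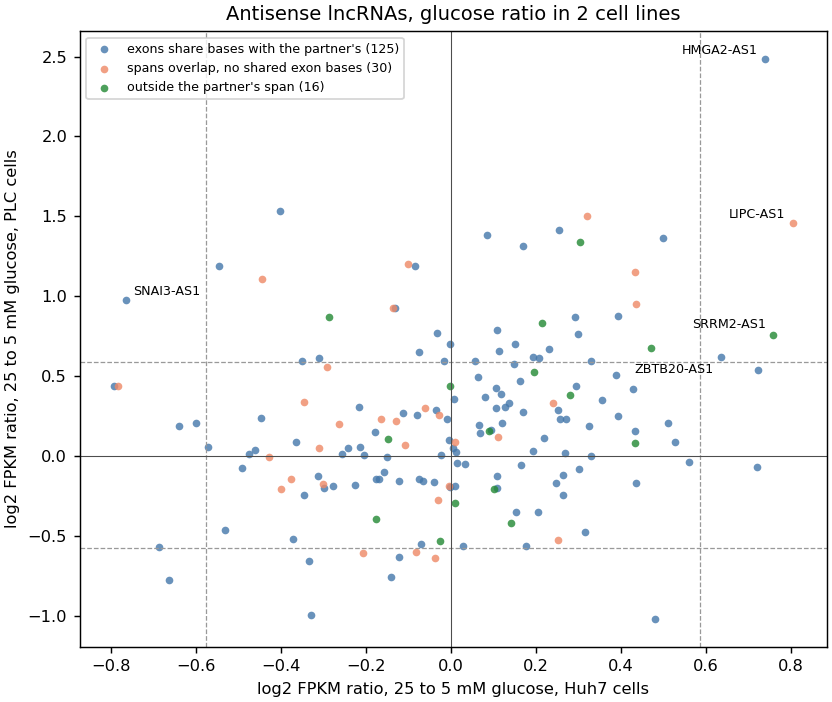
Log2 FPKM ratio of 25 to 5 mM glucose in Huh7 (horizontal) and PLC cells (vertical) for the 171 antisense lncRNAs, 1 point each, coloured by overlap with the partner, with dashed lines at the ratios 1.5 and 0.67. HMGA2-AS1, LIPC-AS1, SRRM2-AS1 and ZBTB20-AS1 lie beyond both upper lines and SNAI3-AS1 in the upper left.

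HMGA2-AS1 had 313 and 747 reads in Huh7 and 66 and 240 in PLC cells, the low glucose level first (2.43, 4.12, 0.361 and 2.48 FPKM). It was higher at 25 mM in both lines, and in PLC cells the 25 mM library was the shallower. The ratio was 1.67 in Huh7 (interval 1.48 to 1.94) and 5.59 in PLC cells (5.21 to 9.15), and 6.86 in PLC cells with nothing added, the highest of the members there. HMGA2-AS1 (chr12:65851340-65882167, minus strand) is nested in HMGA2, the gene of an architectural chromatin protein of fetal and tumour tissue, with 93.6% of its exonic bases in HMGA2 introns. HMGA2 had 16.6, 20.8, 6.90 and 10.1 FPKM and ratios of 1.25 and 1.46, both inside the thresholds. Whether intronic HMGA2 reads enter this count was not tested.

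LIPC-AS1 had 68 and 172 reads in Huh7 and 182 and 271 in PLC cells (1.43, 2.56, 2.69 and 7.57 FPKM), again higher at 25 mM in both lines. The ratios were 1.75 (1.35 to 2.42) and 2.74 (2.32 to 3.41). It lies on chr15:58434890-58498735 (minus strand), its exons wholly within introns of LIPC, which encodes hepatic lipase, the liver enzyme that hydrolyses triglycerides of lipoproteins. LIPC moved the same way, with 4.38, 6.55, 13.7 and 22.1 FPKM and ratios of 1.49 and 1.61. The span of ALDH1A2 also crosses LIPC-AS1 without sharing an exonic base, and the part of intronic reads in the antisense count was not tested.

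Promoter windows of these nested members, which overlap no exon of another gene, are shown to place their own starts; capitals mark the motifs found, GGGCGG in the first and TATAAA in the second.
HMGA2-AS1, chr12:65882276-65882575 on the minus strand: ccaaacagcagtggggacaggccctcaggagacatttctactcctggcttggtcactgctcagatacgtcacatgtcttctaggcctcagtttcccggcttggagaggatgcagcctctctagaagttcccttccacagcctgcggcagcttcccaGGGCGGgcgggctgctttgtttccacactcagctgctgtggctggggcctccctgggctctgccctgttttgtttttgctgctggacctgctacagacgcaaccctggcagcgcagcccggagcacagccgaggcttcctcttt
LIPC-AS1, chr15:58498686-58498985 on the minus strand: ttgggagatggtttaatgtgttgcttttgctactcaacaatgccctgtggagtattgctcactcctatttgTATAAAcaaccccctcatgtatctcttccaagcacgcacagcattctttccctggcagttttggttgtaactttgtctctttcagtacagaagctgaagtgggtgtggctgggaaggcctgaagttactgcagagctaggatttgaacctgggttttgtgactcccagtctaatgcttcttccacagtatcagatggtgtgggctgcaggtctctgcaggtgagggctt
The HMGA2-AS1 window had a GC content of 60% and 9 CG pairs and the LIPC-AS1 window 47.3% and 1, and neither held CACGTG. The RefSeq start of HMGA2-AS1 lies 158 bases from the start in the counts table, that of LIPC-AS1 at the same base.

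Of the 4, SRRM2-AS1 does not lie over its partner. It lies on chr16:2737076-2752600 (minus strand), outside SRRM2, and no exon or span of another gene crosses it. It had 96 and 242 reads in Huh7 and 144 and 136 in PLC cells, so that its share of the library was higher at 25 mM in both lines. The ratio was 1.69 in Huh7 (1.41 to 2.29) and 1.69 in PLC cells (1.40 to 2.27), and stayed above 1.5 under TMM (1.65 and 1.56). SRRM2, reading away from the same CG-rich stretch, had ratios of 0.924 and 0.776, both below 1 but inside the thresholds.

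ZBTB20-AS1 had 246 and 547 reads in Huh7 and 402 and 332 in PLC cells, with ratios of 1.55 (1.36 to 1.84) and 1.53 (1.34 to 1.81). Under TMM its PLC ratio was 1.42, inside the threshold. It is nested in ZBTB20, a zinc finger repressor known to silence AFP in the adult liver, with 95.7% of its exonic bases in introns, and ZBTB20 had ratios of 1.03 and 1.12.

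SNAI3-AS1 went opposite ways. It had 311 and 250 reads in Huh7 and 162 and 178 in PLC cells (2.38, 1.36, 0.877 and 1.82 FPKM), with ratios of 0.588 (0.482 to 0.677) and 1.96 (1.67 to 2.58). Its partner SNAI3, a gene of the snail family of zinc finger repressors, is enclosed by the antisense gene. SNAI3 had 67, 38, 66 and 61 reads and ratios of 0.434 and 1.69, in the same directions. Whether unspliced SNAI3-AS1 RNA enters the SNAI3 count was not tested. With 2 libraries behind each ratio, no test was made of whether the lines differ.

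**Figure D3:**
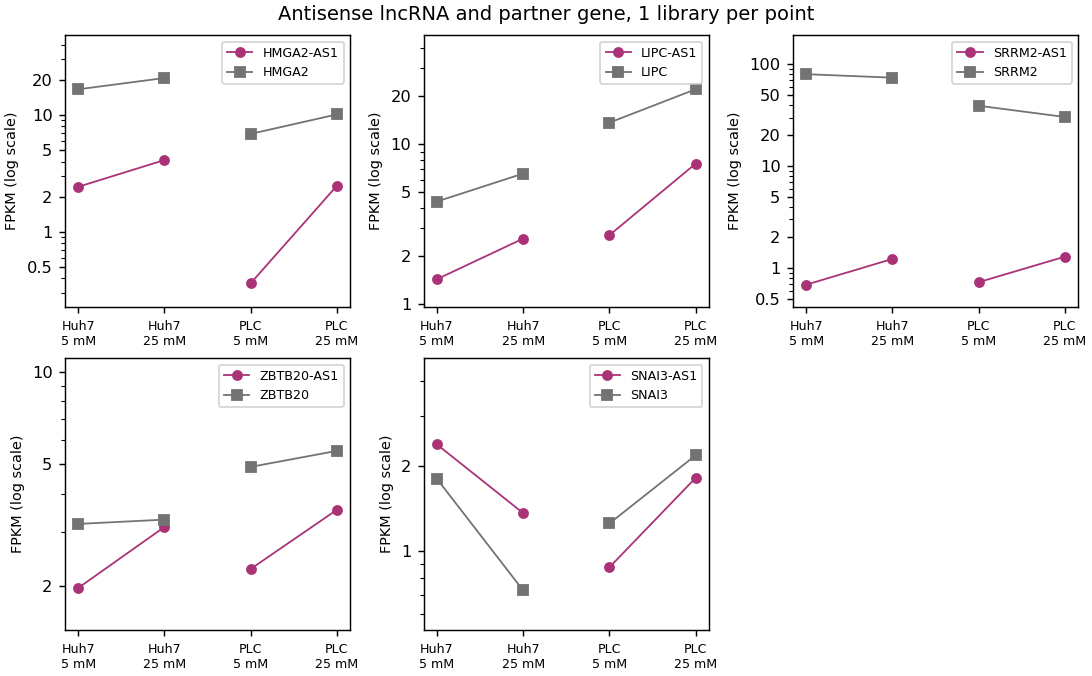
FPKM on a log scale of 5 antisense lncRNAs (circles) and their partner genes (squares) in the 4 libraries, with a line joining the 5 and 25 mM libraries of a cell line. HMGA2-AS1, LIPC-AS1, SRRM2-AS1 and ZBTB20-AS1 were higher at 25 mM in both lines, while SRRM2 stayed inside the thresholds with ratios below 1. SNAI3-AS1 and SNAI3 were lower at 25 mM in Huh7 and higher in PLC cells.

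A change common to both lines could be tested with cell line as a block, at 1 residual degree of freedom. edgeR's quasi-likelihood test with Benjamini-Hochberg adjustment over 23217 genes called 0 of the 171 members at an adjusted p under 0.05, against 0.379% of all genes tested. At an unadjusted p under 0.05 stood 7 members (8.51% of all genes), among them HMGA2-AS1, LIPC-AS1, SRRM2-AS1, NR2F2-AS1 and ITGA9-AS1 with a higher and ZNF674-AS1 with a lower level. DESeq2 called 0 as well (4 unadjusted), limma-voom 0 (6 unadjusted), and edgeR without a filter on low counts called 1, HMGA2-AS1. For HMGA2-AS1 the log2 fold change was 1.63 ± 0.42 (SE) with an adjusted p of 0.14 by edgeR. For LIPC-AS1 it was 1.10 ± 0.35 with an adjusted p of 0.271. The other 3 named above had adjusted p-values of 0.575 (SRRM2-AS1), 0.662 (ZBTB20-AS1) and 0.999 (SNAI3-AS1) by edgeR. The residual spread in this fit is how far the glucose change differs between the lines, moderated over all genes. The lines are not replicate cultures, so these p-values hold no spread between repeats. Nothing says that the libraries are separate cultures of equal handling.

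Next, each antisense RNA was set beside its partner. In Huh7 cells 2 pairs passed the ratio thresholds the same way and 0 opposite ways, and in PLC cells 15 the same way and 2 opposite. Of the 11 and 46 members called, 9 and 29 had a partner inside the thresholds or under 0.5 FPKM. Over the same pairs 13 and 42 partners were called. No rate for unrelated gene pairs is given here, so the pair counts alone do not show a link within pairs. Across the 171 pairs the log2 ratios of member and partner had r = 0.32 in Huh7 and r = 0.30 in PLC cells. By class the r was 0.33 and 0.30 for the 125 pairs with shared exonic bases, 0.45 and 0.48 for the 30 crossing pairs, and -0.25 and -0.14 for the 16 outside pairs. These are descriptions over pairs that share the same libraries. A median of 34.25% of the exonic bases of crossing members lay in the partner's introns, against 0 for outside members. The part of the partner's intronic reads in these correlations was not tested.

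**Figure D4:**
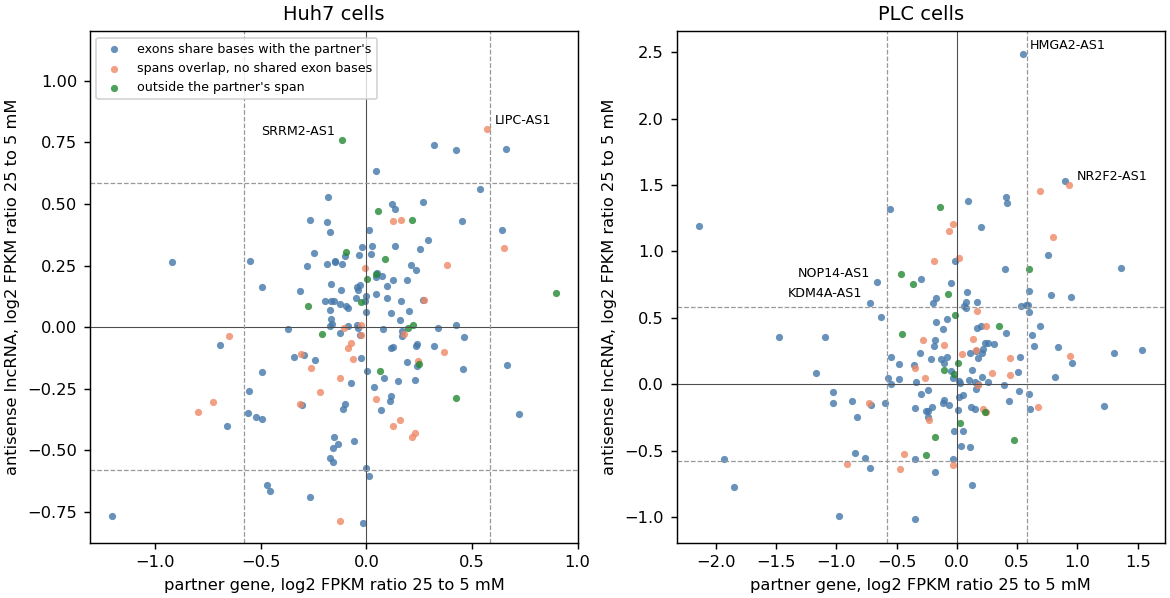
Log2 FPKM ratio of 25 to 5 mM glucose of the antisense lncRNA (vertical) against that of its partner gene (horizontal) in Huh7 (left) and PLC cells (right), 171 pairs in each panel, coloured by overlap, with dashed lines at the ratios 1.5 and 0.67. Across the 16 outside pairs r was -0.25 and -0.14, and across the 30 crossing pairs 0.45 and 0.48.

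The pairs that passed opposite ways in PLC cells were tail to tail. NOP14-AS1 had 381 and 353 reads in PLC cells and a ratio of 1.70 (1.51 to 2.03), while NOP14, a factor of small ribosomal subunit assembly, had 3195 and 1067 and a ratio of 0.631 (0.587 to 0.675). KDM4A-AS1 had 125 and 105 reads there and a ratio of 1.53 (1.21 to 2.07), while KDM4A, a histone lysine demethylase, had 1165 and 371 and a ratio of 0.606 (0.533 to 0.676). Under TMM the PLC ratio of NOP14-AS1 was 1.57 and that of KDM4A-AS1 1.42, inside the threshold (also with DESeq2 size factors), so that the KDM4A pair then no longer passed opposite ways. In Huh7 cells neither pair passed a threshold: NOP14-AS1 and NOP14 had ratios of 0.977 and 0.978, KDM4A-AS1 and KDM4A of 0.806 and 0.933. Chosen after their values were seen, 2 further members passed the upper ratio in PLC cells without the partner. WAC-AS1, head to head with WAC, had 378 and 507 reads and a ratio of 2.49 (2.21 to 2.90) against 0.681 for WAC. SEPSECS-AS1, outside the gene of the selenocysteine-forming enzyme SEPSECS, had 57 and 87 reads and a ratio of 2.53 (2.04 to 4.09) against 0.907 for SEPSECS.

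Among the pairs past the ratio the same way in PLC cells were those of NR2F2-AS1 and STARD4-AS1. NR2F2-AS1 had 856 and 1313 reads in PLC cells and a ratio of 2.83 (2.65 to 3.16), and NR2F2, an orphan nuclear receptor also called COUP-TFII, a ratio of 1.91 (1.80 to 2.03). In Huh7 cells the ratios were 1.25 for NR2F2-AS1 and 1.57 for NR2F2. STARD4-AS1 had 67 and 131 reads in PLC cells, with a ratio of 2.90 (2.73 to 5.03), and STARD4, which encodes an intracellular cholesterol carrier, a ratio of 1.86 (1.72 to 2.05). In Huh7 cells both lay below 1, at 0.757 and 0.633.

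The cell lines were compared next. With glucose as a block, edgeR called 45 of the 171 members different between Huh7 and PLC cells, 21 higher in Huh7 and 24 higher in PLC cells, against 42.9% of all genes tested (21.8% higher in Huh7 and 21.1% higher in PLC cells) and 42.8% of those with at least 50 reads in every library. That is 26.3% of the members. Their rule keeps only RNAs present in both lines, but so does the cut behind the 42.8%. Those genes were not matched to the members for abundance, and the reason for the lower share was not tested. Each line is represented by 2 libraries at different glucose levels.

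NR2F1-AS1 was the member most above PLC in Huh7 cells. It had 661 and 919 reads in Huh7 against 53 and 61 in PLC cells, with no overlap, and a log2 fold change of 3.56 ± 0.36 (SE; adjusted p = 4.12e-06, edgeR). Its head-to-head partner NR2F1, the orphan nuclear receptor COUP-TFI, differed in the same direction by 2.97 ± 0.28 (adjusted p = 2.19e-06, edgeR). NR2F2-AS1 was the member most above Huh7 in PLC cells, with 106 and 194 reads in Huh7 against 856 and 1313 in PLC cells, again with no overlap. Its log2 fold change was -3.11 ± 0.33 (adjusted p = 5.69e-06, edgeR), while NR2F2 had 15.8, 24.9, 11.2 and 21.6 FPKM and a log2 fold change of 0.34 ± 0.22 (adjusted p = 0.229). The antisense RNAs of these related receptors thus lay on opposite sides, with NR2F1 called beside its antisense RNA and NR2F2 not called.

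Also higher in Huh7 cells were MAGI2-AS3 with a log2 fold change of 2.38 ± 0.30, STARD4-AS1 with 2.17 ± 0.47, KTN1-AS1 with 1.68 ± 0.31 and HMGA2-AS1 with 1.68 ± 0.42. MAGI2-AS3 had 1285 and 1141 reads in Huh7 against 257 and 159 in PLC cells, while MAGI2, a scaffold protein gene, was nearly level (395, 372, 389 and 170 reads; log2 fold change 0.37 ± 0.30). The partners of the other 3 named here were called in the same direction, with 1.07 for STARD4, 1.36 for KTN1 and 1.15 for HMGA2.

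Also higher in PLC cells were SNAP25-AS1 with a log2 fold change of -2.62 ± 0.40, ELF3-AS1 with -2.57 ± 0.32, PTPRG-AS1 with -2.23 ± 0.35 and ZEB1-AS1 with -2.06 ± 0.36. ELF3-AS1 had 91 and 157 reads in Huh7 against 922 and 411 in PLC cells, and ELF3, an epithelial ETS factor, had 362, 259, 3601 and 1613. SNAP25, the gene of a vesicle fusion protein, had 83 and 140 reads in Huh7 against 2196 and 1022 in PLC cells, and PTPRG, a receptor tyrosine phosphatase gene, was higher in PLC cells as well (log2 fold change -2.17 ± 0.22). ZEB1-AS1 had 64 and 69 reads in Huh7 against 418 and 138 in PLC cells, whereas ZEB1, a repressor known from the epithelial to mesenchymal transition, had 1131, 1671, 1834 and 857 reads and a log2 fold change of -0.07 ± 0.24 (adjusted p = 0.828, edgeR).

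Across the 170 pairs in which both genes could be tested, 45 members and 69 partners were called between the lines. Both were called in the same direction in 24 pairs and in opposite directions in 4, without a rate for unrelated pairs. As a description, r was 0.35 and rho 0.43. The r was 0.33 for pairs sharing exonic bases, 0.68 for crossing pairs and -0.30 for the 16 outside pairs, among which 6 members and 6 partners were called but no pair in the same direction. The part of the partner's intronic reads in the crossing pairs was not tested here either. In the opposite pairs stood SUCLG2-AS1, SLC16A1-AS1, SLC25A25-AS1 and SCN1A-AS1. SUCLG2-AS1, outside SUCLG2, had 135 and 204 reads in Huh7 against 81 and 50 in PLC cells (log2 fold change 1.17 ± 0.37, adjusted p = 0.0215, edgeR), while SUCLG2, a succinyl-CoA ligase subunit of the citric acid cycle, had 748 and 867 against 3858 and 2064 (-2.02 ± 0.23).

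**Figure D5:**
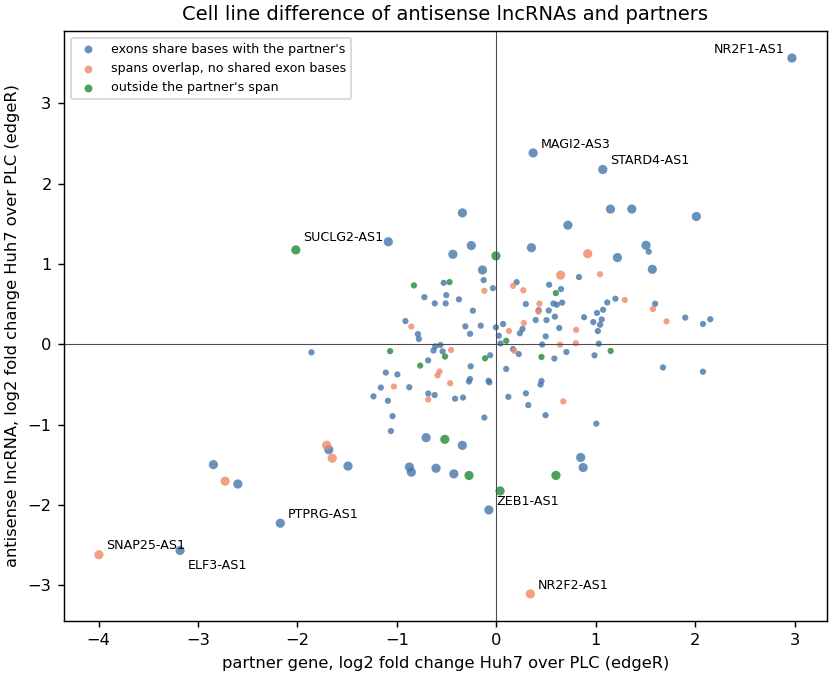
edgeR log2 fold change of Huh7 over PLC cells for the antisense lncRNA (vertical) against that of its partner gene (horizontal), coloured by overlap, with larger points for members at an adjusted p under 0.05. NR2F1-AS1 (3.56) lies with NR2F1 at the upper right and NR2F2-AS1 (-3.11) lies low while NR2F2 (0.34) is near 0; TP73-AS1, whose partner was not tested, and SCN1A-AS1, whose partner had no read in Huh7 cells, are not drawn.

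SLC16A1-AS1 had 213 and 268 reads in Huh7 against 1082 and 331 in PLC cells (-1.53 ± 0.30), while its head-to-head partner SLC16A1, the lactate and pyruvate transporter MCT1, was higher in Huh7 cells (0.87 ± 0.21). SLC16A1-AS1 was also called lower at 25 mM in PLC cells, with a ratio of 0.592 (0.509 to 0.653) against 1.09 for SLC16A1, and had 0.906 against 1.14 in Huh7 cells. SLC25A25-AS1 had 82 and 109 reads in Huh7 against 366 and 129 in PLC cells (-1.41 ± 0.36), against 0.85 ± 0.27 for SLC25A25, a mitochondrial carrier of adenine nucleotides. SCN1A-AS1 had 1189 and 1107 reads in Huh7 against 748 and 413 in PLC cells (0.84 ± 0.26), while the sodium channel gene SCN1A had 0 reads in both Huh7 libraries and 420 and 415 in PLC cells.

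Outside pairs also gave members that differed between the lines while the partner was not called. BOLA3-AS1 had 148 and 183 reads in Huh7 against 799 and 320 in PLC cells (log2 fold change -1.83 ± 0.30, adjusted p = 0.000325, edgeR), while BOLA3, an iron-sulphur cluster assembly gene, differed by 0.04 ± 0.29. RNASEH1-AS1 had 157 and 238 against 768 and 351 (-1.63 ± 0.30, adjusted p = 0.000736), while RNASEH1, which removes RNA from RNA-DNA hybrids, differed by 0.60 ± 0.24 (adjusted p = 0.0606). UBA6-AS1 had 134 and 190 against 657 and 280 (-1.63 ± 0.31), while UBA6, a ubiquitin-activating enzyme gene, differed by -0.27 ± 0.22. None of these 3 overlaps a base of its partner.

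Of 18 antisense RNAs known by name from work in other cells, 12 were members. SBF2-AS1 differed between the lines by -1.54 ± 0.36 (adjusted p = 0.00338, edgeR) and PSMA3-AS1 by 0.86 ± 0.23 (adjusted p = 0.00794). ZEB1-AS1 is given above. A further 8 whose glucose ratios lay inside the thresholds in both lines and whose line difference had an adjusted p above 0.05 were OIP5-AS1, FGD5-AS1, MCM3AP-AS1, NNT-AS1, MAPKAPK5-AS1, DHRS4-AS1, PCBP1-AS1 and TTN-AS1.

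Genes of the machinery that removes or reads such RNAs were counted from lists, to be read against the 0.379% of all genes that edgeR called for glucose and the 42.9% it called between the lines. Of 19 genes of the nuclear exosome and its adaptors, edgeR called 0 for glucose (1 at an unadjusted p under 0.05) and 8 between the lines, 7 higher in Huh7 and 1 higher in PLC cells. Of 12 tested enzymes and sensors of double-stranded RNA it called 0 for glucose (0 unadjusted) and 4 between the lines, 2 in each direction. The lncRNAs counted next by other name endings all had at least 50 reads in every library, the same cut as the members. Of 24 lncRNAs named -DT for divergent transcripts edgeR called 0 for glucose (2 unadjusted) and 5 between the lines, 2 higher in Huh7 and 3 higher in PLC cells. Their median log2 glucose ratio was -0.01 in Huh7 and 0.39 in PLC cells, beside 0.04 and 0.08 over the 11229 genes with at least 50 reads in every library. Of 11 named -IT for intronic transcripts it called 0 for glucose (0 unadjusted) and 1 between the lines, higher in PLC cells, and of 2 named -OT for overlapping transcripts 0 for glucose (0 unadjusted) and 1 between the lines, higher in Huh7.

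Members just inside and just outside the minimum of 50 reads had like counts. Inside stood SUCLG2-AS1 (135, 204, 81 and 50 reads), YEATS2-AS1 (70, 114, 58 and 50) and DENND5B-AS1 (58, 78, 76 and 50). Outside stood MAP3K20-AS1 (49, 77, 87 and 57), PRR7-AS1 (52, 71, 64 and 49) and FKBP14-AS1 (80, 110, 81 and 49).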

How the data were processed

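In all, 4 libraries were analysed, 1 for each of Huh7 and PLC cells at 5 and 25 mM glucose. The authors deposited raw read counts per gene, with exon coordinates and lengths. Per the labels the tools were HISAT2 and featureCounts on hg38, and versions, annotation release and strand setting are not given in the sources used here. The directional kit keeps strand, but the counts do not separate it. Broken lines of the file (5, gene ANK2) were left out, leaving 59652 genes.

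From the deposited counts FPKM was computed with the table's length and the sum of reads on genes. The members, lists and alternatives were chosen with earlier results of these data known. Glucose ratios within a line (0.1 added; thresholds 1.5 and 0.67; FPKM over 0.5 in at least 1 library) have no test. Exact 95% Clopper-Pearson intervals cover counting error only and none between cultures. A shared glucose change (cell line as block) and a line difference (glucose as block) were tested with edgeR 4.0.16 (R 4.3.3; filterByExpr, TMM, quasi-likelihood test, Benjamini-Hochberg over 23217 genes). DESeq2 1.42.0 and limma 3.58.1 were alternatives. Named genes are those called in both lines, the 5 with the highest line difference in each direction, the 6 most abundant, the 6 sharing most exonic bases, pairs moving apart, names known from other work, and the exceptions stated. In simulated counts with 200 changed genes among 23217, edgeR found 1.5% of 2-fold, 94.5% of 4-fold and 100% of 8-fold glucose changes, and 13.5, 90 and 99.5% of line differences. These counts had a common dispersion and, apart from the changed genes, the same mean share in every library. The changed genes came from those above a minimum of reads. The rates therefore do not give the power in the real libraries. Coordinates are hg38, 1-based. Promoter windows come from RefSeq on GRCh38.p14. Certain members are not reported here by name.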

Additional observations from a re-analysis of the deposited data

Results flagged for a closer look

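SNAI3-AS1 moved opposite ways with glucose in the lines: its log2 FPKM ratio of 25 to 5 mM was -0.77 in Huh7 and 0.97 in PLC cells, and the difference was not tested, since each line has 1 library per glucose level. The count of its enclosed partner SNAI3 had ratios of 0.434 and 1.69, and whether unspliced SNAI3-AS1 RNA enters that count was not tested.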

How the results depend on the processing

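No paired analysis was possible because the labels give no shared replicate numbers, beyond the fit with cell line as a block, which already compares 25 with 5 mM within each line. The shared glucose change called 0 members in edgeR and 1 (HMGA2-AS1, log2 fold change 1.61) without a filter on low counts, which also changes the number of genes tested; DESeq2, limma-voom, other size factors, a stricter filter and no block called 0. SNAI3-AS1, 0.03 in edgeR, became -0.059 with limma-voom and -0.11 without the block; the cause was not tested. The line difference called 35 (DESeq2) to 49 members, and HMGA2-AS1 fell to 1.26 without the block and was no longer called.

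Of members past the glucose ratio in Huh7 (11), 1 was left with 1 added to FPKM, 0 at the ratios 2 and 0.5, 4 of 83 with at least 100 reads and 3 of 27 whose exons overlap no other exon. In PLC cells (46) these were 18, 15, 18 and 9, and 26 among members with under 10% of exonic bases in other exons, an alternative chosen after seeing the data. With 1 added, 10.5% of the members passed in PLC cells, 16 higher and 2 lower. Of all genes with at least 50 reads in every library, 12.1% were then higher and 7.22% lower. For the stricter ratios and sets no share over all genes is given. TMM left 13 and 44. With 1 added no member passed in both lines, and with TMM 3 were higher in both. Pairs past the ratio the same way in Huh7 (2) became 0 with 1 added, 1 with at least 100 reads and 0 where the partner had at least 50 reads; in PLC cells 15 became 5 with 1 added and 5 with at least 100 reads, and the 2 opposite pairs 0 with 1 added. Adding 1 shrinks ratios at low FPKM by construction, and the stricter sets hold fewer members. The median log2 level of member over partner, -1.95, was -2.43 from counts without length and -1.52 with at least 100 reads.

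With 1 library per level, a ratio cannot be set against the spread between cultures, and the tests have 1 residual degree of freedom.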
